A study of Drosophila melanogaster with 30 samples.

Results

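A set of 62 genes, of 14326 in the count table, was on in some libraries of *pink1B9* flies and off in others. A gene was called on in a library above 1 CPM (its count over the total count of the library, times 1000000), off at less than 0.1 CPM, and between otherwise. The 62 genes were on in at least 5 and off in at least 5 of 27 mutant libraries. The genes were thus chosen by their CPM in these 27 libraries. Their states there are given as a description, and nothing is read from a test of states. The tests given between groups are per gene and on levels, from fits over the whole table.

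RNA had been sequenced from whole male flies aged 1 day, 5 flies per library, to ask why some flies that lack Pink1, a mitochondrial kinase, can still fly. Group 4 held 10 libraries of *w pink1B9* flies that could fly, and group 3 held 10 libraries of *w pink1B9* flies that could not fly. Both came from the same parent pairs, but nothing in the labels links a given library of group 4 to one of group 3. Group 2 held 8 libraries of *w pink1B9* flies from parent pairs without flying offspring, and group 1 held 2 libraries of *w pink1RV* flies, a revertant control. The mutants carry a deletion in *Pink1*, and both genotypes share the eye color allele of *w*. Each library is a pool, so a p-value measures the spread between pools of flies and not between single flies. In groups 3 and 4, 6 libraries are described as human skin in their tissue field, although the table holds fly genes.

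One group 4 library, GC055057, stood apart and was not used to choose the genes. Its summed level over 18 ovary genes, chorion and yolk protein genes among them, was 6458 CPM, against 26.4 to 45.6 CPM in the other mutant libraries and 45.8 and 76.4 CPM in the controls. Unless stated otherwise, group 4 values are for the other 9 libraries (n = 9, with n = 10 in group 3, n = 8 in group 2 and n = 2 in group 1). Total counts ranged from 6434252 to 38330421. In the smallest library, GC055048 of group 2, 1 CPM corresponded to 6.43 counts, and any nonzero count was above the limit of off.

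Several of the 62 genes belong to families of near-identical copies. The histone genes lie in a long tandem array on chromosome 2L. The *Sdic* genes on the X chromosome are tandem copies that encode a dynein intermediate chain of sperm tails, and the *Mst77Y* genes are Y-linked copies of *Mst77F*, which encodes a protein of sperm chromatin. At *mod(mdg4)*, separate 3′ exons, annotated as *pre-mod(mdg4)* genes, are joined to common 5′ exons by trans-splicing. Other genes of the set stand alone. They include *Burs* and *Pburs*, the subunits of bursicon, the hormone that drives tanning of the cuticle and expansion of the wings after a fly leaves its pupal case. A tool that assigns reads to transcripts, such as kallisto, divides reads that fit several copies between them by estimation. Whether that division set any of the states below was not tested.

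Of the 1674 values of the 62 genes in the 27 libraries, 38.8% were on, 33.6% off and 27.7% between, and 427 values were exactly 0 counts. Each library of group 4 had 15 to 38 genes on (median 21), each of group 3 had 16 to 37 (median 21.5) and each of group 2 had 15 to 41 (median 24.5). The controls had 26 and 28 genes on. The groups thus overlapped widely in how many of the genes were on. In the map of states by library, 47 of the 62 genes were on in at least 1 library and off in at least 1 library of each mutant group. The rule asks for at least 5 libraries in each state, which favours such a division, so nothing is read from this count.

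**Figure D1:**
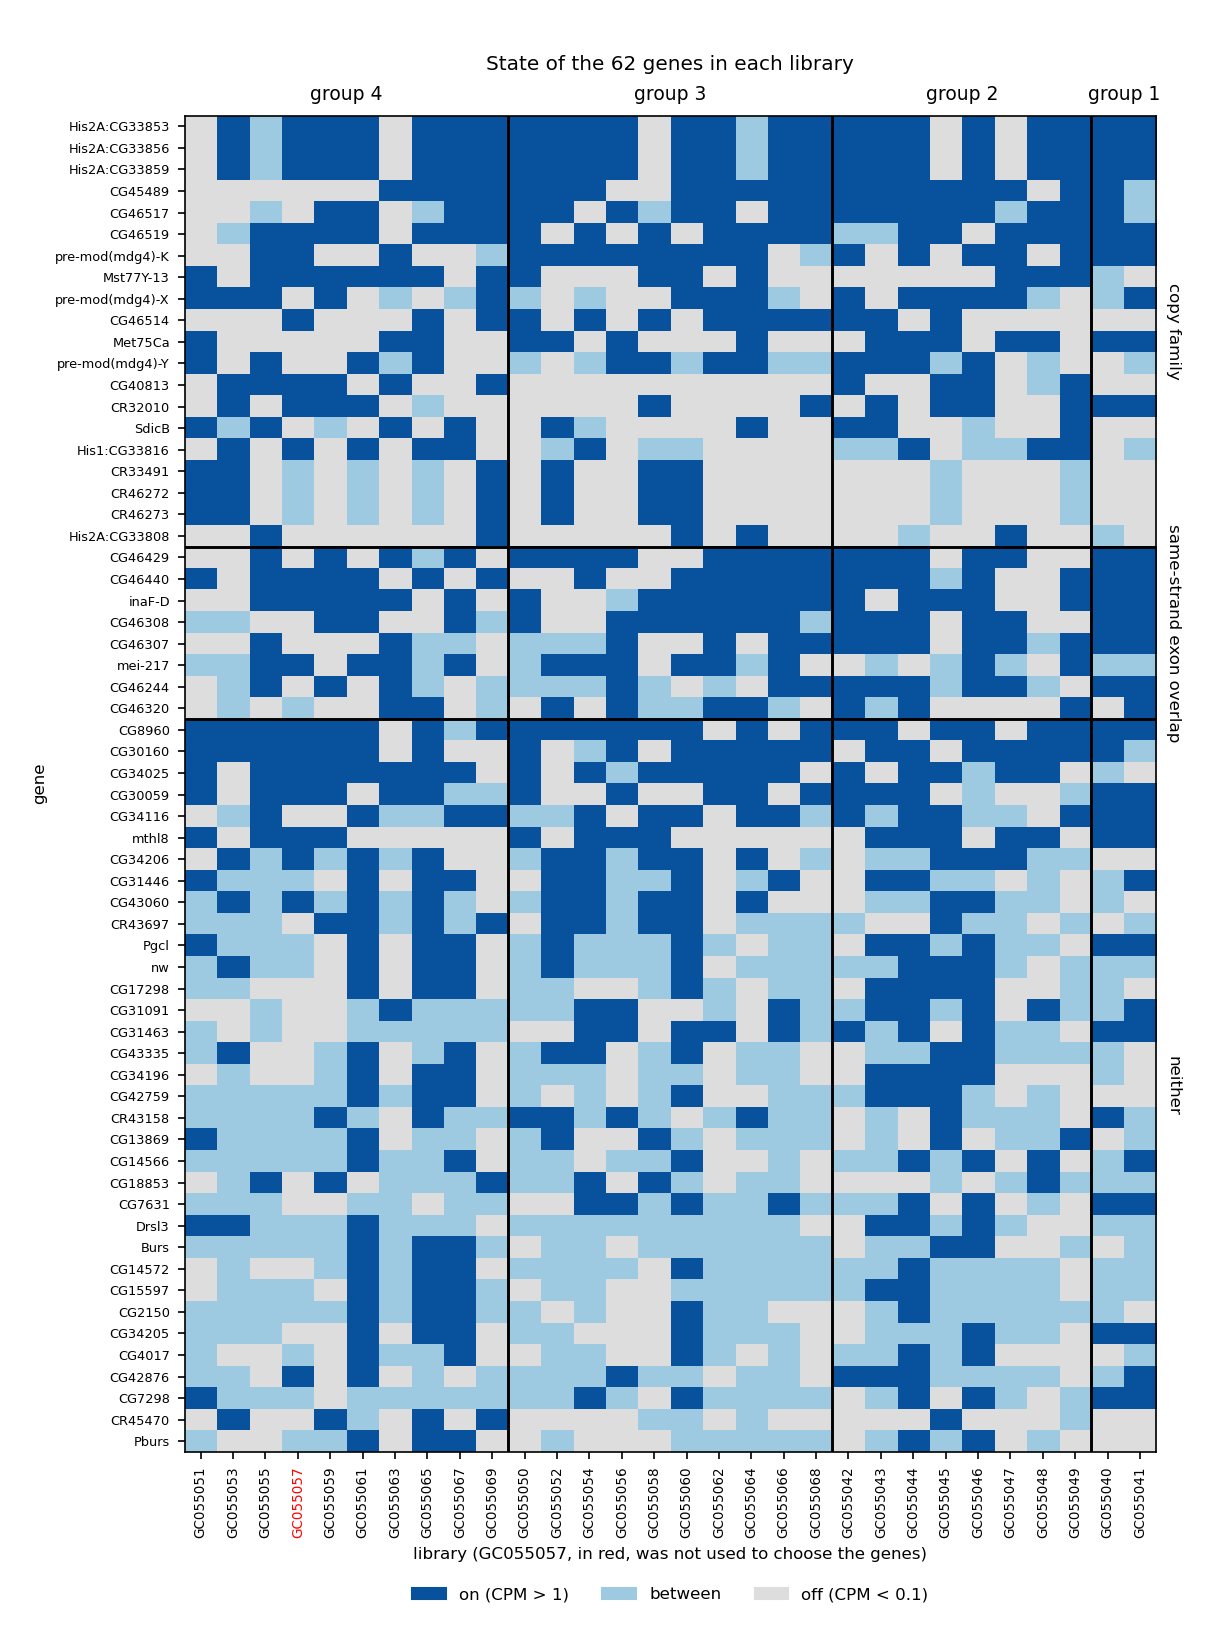
State of each of the 62 genes (rows) in each of the 30 libraries (columns), with group 4, 3, 2 and 1 from left to right, dark cells for on, pale blue cells for between and grey cells for off, and lines between the 20 genes of copy families, the 8 that overlap another gene and the 34 others. Grey and dark cells lie side by side within every group of mutants, and *CG40813* is grey in all of group 3.

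No library of group 4 had 2 of the genes on, *CG31463* and *CG7631*. In group 3, 7 genes were on in no library, namely *Burs*, *Pburs*, *CG15597*, *CG34196*, *CG40813*, *CR45470* and *Drsl3*, and in group 2 this held for 3 genes, the equal pseudogenes *CR33491*, *CR46272* and *CR46273*. In both controls 22 genes were on, 10 were off and 6 were between. A further 23 genes were between in 1 control only, and *CG46320* was on in 1 control and off in the other. In GC055057, 21 genes were on, 23 off and 18 between.

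Most of the genes were low even when on. The median CPM over the libraries in which a gene was on ranged from 1.14 to 25.7, with a median of 2.30 over the 62 genes. The 8 highest by this measure were *CG46429* (25.7 CPM), *CG17298* (10.9 CPM), *SdicB* (6.458 CPM), *CG46519* (6.27 CPM), *CG46514* (6.14 CPM), *mthl8* (5.79 CPM), *CG30160* (5.41 CPM) and *CG40813* (5.33 CPM). Exactly 5 libraries in the scarcer state were held by 21 of the genes, whose highest CPM in a library had a median of 2.66 (1.35 to 15.5). Just outside the rule, 45 genes had 4 libraries in the scarcer state, with a median of 3.37 CPM (1.27 to 31.6). *Unc-115b* and *p24-2* did not belong to the set, since each was on in 26 mutant libraries and off in 1.

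The set differed in its makeup from the table as a whole. All 62 genes could be placed in the BDGP6.54 annotation, as could 14105 of the 14326 symbols. Pseudogenes made up 7 of the 62 (11.3%), against 2.41% of all placed genes, and 9 (14.5%) had symbols of the form CG46 plus 3 digits, against 0.674%. Exons on the same strand overlapped those of another gene for 11 (17.7%), against 6.49%. The median exonic length was 870.5 bases, against 1699 bases. The X chromosome held 13 of the genes (21.0%, against 15.9%), chromosome 3R held 14, 2L held 13, 2R and 3L held 10 each, and the Y and chromosome 4 held 1 each.

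By symbol and position, 20 of the genes were copies in a family, 8 more overlapped another gene on the same strand, and 34 were neither. These families were drawn up after the values had been seen. The copies are described first, then the overlapping genes, then the others.

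*CG40813* (X, 22143058 to 22143933, plus strand) is a gene of unknown function at the start of a block of 20 genes of 802 or 803 exonic bases that ends at 22247475. Its levels in group 4 were 0, 6.41, 5.33, 3.14, 0, 2.30, 0, 0 and 2.11 CPM, with 4.04 CPM in GC055057. In group 3 it had 0 counts in all 10 libraries, and in group 2 its levels were 5.61, 0.0423, 0, 5.46, 4.37, 0, 0.155 and 6.27 CPM. Both controls had 0 counts. *CG40813* was thus on in 5 of 9 flying pools and in 4 of 8 pools of group 2, which has no flying offspring, and the ranges of groups 4 and 2 overlapped.

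With group 3 at 0, a fold change is only a lower limit, computed on pooled counts against 3 counts over the 10 libraries. This limit covers counting error in group 3 only and leaves out the spread between libraries. *CG40813* was at least 110-fold higher in group 4 (1.69 CPM over the pooled counts) than in group 3 (floor 0.0153 CPM). In edgeR's quasi-likelihood test the log2 fold change was 8.52 (SE 1.99). The Benjamini-Hochberg adjusted p over all 13190 genes tested was 0.226. Over the alternatives that test levels, the adjusted p ran between 0.0497 in DESeq2 and 0.915 in limma-voom, with 0.883 in edgeR without GC055057. Group 3 was also at least 204-fold lower than group 2 (3.12 CPM over the pooled counts), at an adjusted p of 1 in edgeR. The adjusted p was 0.0903 in DESeq2, and limma-voom did not call it. The unadjusted edgeR p was 0.000355 here and 0.000446 between groups 4 and 3.

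The sum over the block varied less than *CG40813*, but the rule chose *CG40813* for its wide range, so nothing is read from this. Over the 18 genes of the block with counts, the sum was 74.1 ± 10.8 CPM in group 4 (SD, n = 9), 73.1 ± 11.8 CPM in group 3 (SD, n = 10) and 74.0 ± 22.2 CPM in group 2 (SD, n = 8). The controls were at 41.6 and 20.7 CPM, below every mutant library, whose lowest sum was 45.5 CPM. The median sum was 81.2 CPM in libraries with *CG40813* on and 69.9 CPM in libraries with it off. *CG40813* held at most 8.60% of the sum.

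*CG46514*, *CG46517* and *CG46519*, of the same block, were also in the set, each 803 exonic bases long. *CG46514* was on in 2 of 9 libraries of group 4, 7 of 10 of group 3 and 3 of 8 of group 2, had 0 counts in the other 15 mutant libraries and had 0 counts in both controls. Its highest level was 9.23 CPM in group 4, 18.2 CPM in group 3 and 12.4 CPM in group 2, and it took up to 19.6% of the sum of the block. *CG46514* and *CG40813* were in the same state in 11 of 26 libraries. *CG46517* was on in 18 mutant libraries and had the same count as *CG46508* in 23 of the 24 libraries in which it had at least 5 counts, whereas *CG46508* and *CG46513* had equal counts in all 30. *CG46519* was on in 18 mutant libraries too, and both controls had it on at 1.85 and 4.78 CPM.

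*SdicB* (X, 20205043 to 20209603, minus strand) was on in 4 of 9 libraries of group 4 (highest 19.998 CPM), 2 of 10 of group 3 (highest 6.458 CPM) and 3 of 8 of group 2 (highest 14.8 CPM). It had 0 counts in 14 mutant libraries and in both controls. The sum over the 7 *Sdic* genes was 336 to 632 CPM over all mutant libraries, at a median of 524 CPM with *SdicB* on and 493.2 CPM with it off, and *SdicB* never exceeded 3.54% of it. Between the *Sdic* genes lie the pseudogenes *CR33491*, *CR46272* and *CR46273*, each of 501 exonic bases. Their counts were equal in all 30 libraries, with 3 libraries on in group 4, 3 in group 3, none in group 2 and 0 counts in both controls. The sum over the 6 pseudogenes of the cluster, of which each of these held a median of 33.3%, was at a median of 3.896 CPM in libraries with them on and 0 CPM in libraries with them off.

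Of the 20 *His2A* genes, which encode histone H2A, 4 were in the set. *His2A:CG33853*, *His2A:CG33856* and *His2A:CG33859* lie 4843 bases apart on 2L and had equal counts in all 30 libraries. Each was at 0 to 2.10 CPM in group 4 (median 1.118), 0 to 1.98 CPM in group 3 (median 1.302) and 0 to 1.65 CPM in group 2 (median 1.24), and both controls had it on at 1.73 and 1.27 CPM. The 3 copies of this run thus held 1 and the same value, on in 20 and off in 5 mutant libraries. Whether each copy varied by itself cannot be told from equal estimated counts. *His2A:CG33808*, elsewhere in the array, was on in only 5 and had 0 counts in 20. The sum over the *His2A* genes was 13.5 to 30.7 CPM over the mutant libraries, at a median of 18.1 CPM with the run of 3 on and 21.3 CPM with it off. *His1:CG33816*, 1 of 23 genes of the linker histone H1, was on in 4 libraries of group 4, 1 of group 3 and 3 of group 2, and it held up to 100% of a sum of 1.07 to 4.25 CPM.

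*Mst77Y-13* (Y, 3354105 to 3354870) was on in 7 of 9 libraries of group 4, 4 of 10 of group 3 and 3 of 8 of group 2, and had 0 counts in the other 13. Its highest levels were 10.9, 7.41 and 10.7 CPM in groups 4, 3 and 2, and the controls were at 0.269 and 0 CPM. The sum over the *Mst77* genes, most of it from other copies, was 912 ± 140 CPM in group 4 (SD, n = 9), 886 ± 144 CPM in group 3 (SD, n = 10) and 896 ± 175 CPM in group 2 (SD, n = 8). *Mst77Y-13* held at most 1.20% of it. *CG45489*, 1 of 10 neighbouring genes on the X, was on in 4 of 9 libraries of group 4, 8 of 10 of group 3 and 7 of 8 of group 2, and held at most 1.53% of a sum of 225 to 570 CPM.

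**Figure D2:**
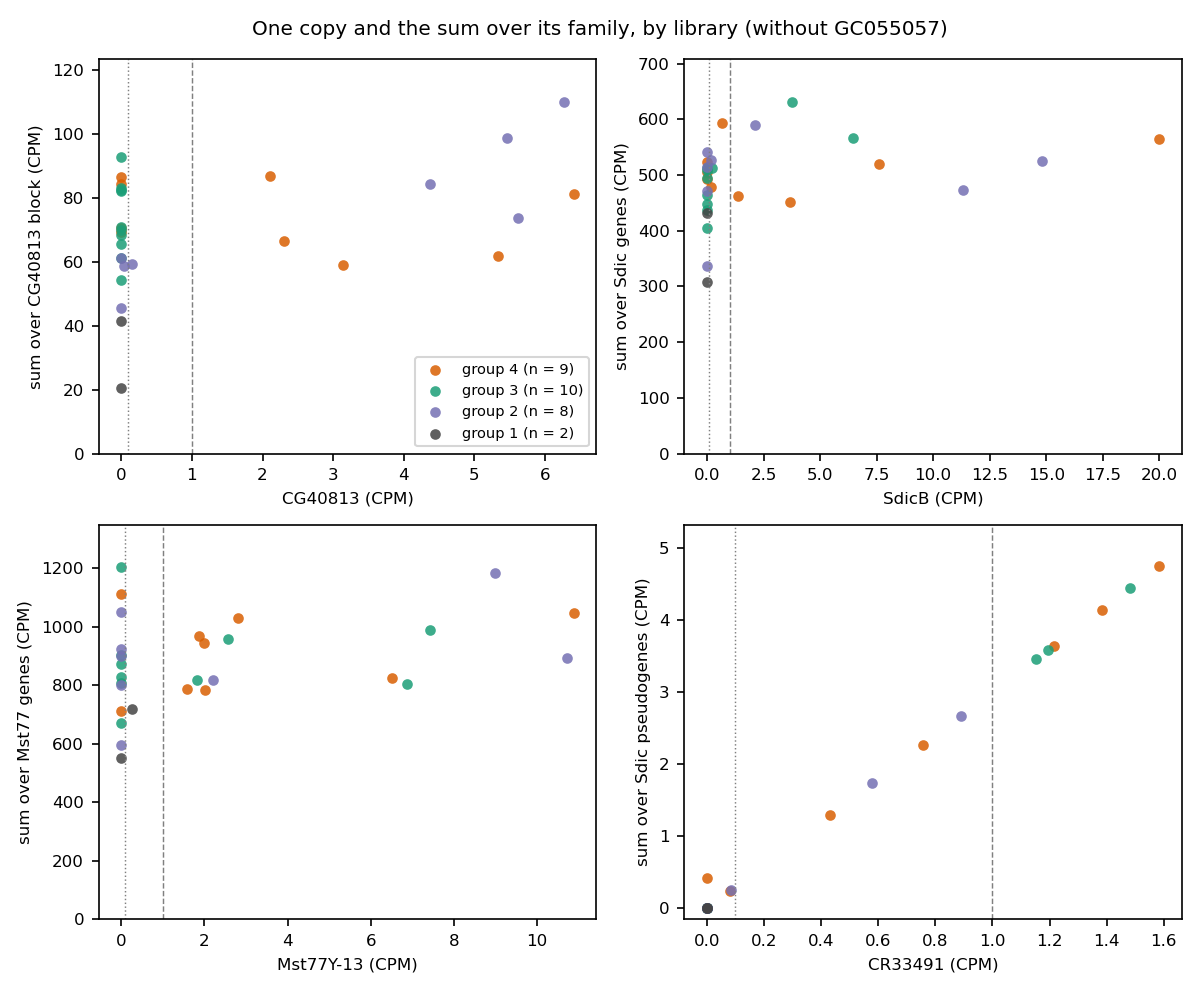
Level of 1 copy (x axis, CPM) against the sum over its family (y axis, CPM) in each library except GC055057, for *CG40813*, *SdicB*, *Mst77Y-13* and *CR33491*, with points colored by group and the dotted and dashed lines at 0.1 and 1 CPM. With the copy at 0, the sums over the first 3 families still span most of their range, whereas the sum over the *Sdic* pseudogenes rises with *CR33491*, except in GC055063 (0.414 CPM with *CR33491* at 0).

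The 3 *pre-mod(mdg4)* genes of the set were *pre-mod(mdg4)-K*, *-X* and *-Y*, of 23 such genes in the table. *pre-mod(mdg4)-K* was on in 2 of 9 libraries of group 4, 8 of 10 of group 3 and 5 of 8 of group 2, with both controls on at 3.54 and 2.31 CPM. *pre-mod(mdg4)-X* and *-Y*, which share 2455 exonic bases, were on in 13 and 12 mutant libraries, and their states were the same in 9 of 18 libraries. The sum over the 23 genes stayed between 66.4 and 143 CPM. *mod(mdg4)* itself was at a median of 63.3 CPM in libraries with *pre-mod(mdg4)-K* on and 63.0 CPM in libraries with it off. *CR32010*, a pseudogene on chromosome 4, was on in 9 mutant libraries and in both controls, at 9.80 and 5.70 CPM. The sum over it and 2 neighbouring pseudogenes was higher with *CR32010* on (median 23.9 CPM) than with it off (13.6 CPM), and *CR32010* held up to 56.6% of it.

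*Met75Ca* (3L, 18472143 to 18472384) had counts in regular steps, which no other gene had in a search over genes with counts in at least 8 libraries and for steps of at least 10 counts. Its exons span 242 bases, and 69 genes of the table are no longer. All 14 of its nonzero counts lay within 1 count of a multiple of 48.52. In 10 libraries the count was a single step (49 counts), in 2 libraries it was 2 steps (97 counts), and in the other 2 libraries it was 15 steps (728 counts, group 4) and 25 steps (1213 counts, group 3). Of the 12 mutant libraries in which *Met75Ca* was on, 9 held 1 step. Its on state therefore rested in most of them on the smallest nonzero value that the table gives for the gene. In the controls it was at 1.88 and 3.07 CPM, which are 1 and 2 steps.

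Over the whole table, 85 sets of genes had equal counts in all 30 libraries and at least 30 summed counts, with 237 genes in all, or 1.73% of the 13726 genes with that many counts. In 50 of these sets the genes overlap one another and in 34 they lie apart on 1 chromosome. Histone genes made up 85 of the 237, and the largest set held 18 copies of *His3*. Of the 62 genes, 6 (9.68%) were in such sets, the *His2A* run of 3 and the *Sdic* pseudogene run of 3 described above. The other copies of the set had no partner with equal counts in all 30 libraries. *CG46517* came close, with the count of *CG46508* in 23 of the 24 libraries in which it had at least 5 counts. Conversely, *CG46515*, *CG46516* and *CG46518*, which lie next to *CG46517* and *CG46519*, had equal counts in all libraries but did not belong to the set.

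The 8 genes that only overlapped another gene lie with all their exonic bases inside the exons of that gene, except *inaF-D*. The partners were *Lar*, a receptor tyrosine phosphatase (*CG46244*), *Nhe2*, a sodium/proton exchanger (*CG46307*), *CG42784* (*CG46308*), *sif*, an exchange factor for Rac (*CG46320*), *Sesn*, the fly sestrin (*CG46429*), the transcription factor gene *Myb* (*CG46440*) and *mei-218*, which acts in meiotic recombination (*mei-217*). *inaF-D* shared 84.1% of its exonic bases with *inaF-B*. The partners were on throughout, with a lowest level over the 27 libraries between 24.4 CPM (*inaF-B*) and 118 CPM (*mei-218*).

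*CG46429* (2R, 23713900 to 23733183) was the highest gene of the set. It was on in 4 of 9 libraries of group 4 at 8.82, 7.33, 16.6 and 23.6 CPM, and the other 5 lay between 0 and 0.235 CPM. In group 3 it was on in 8 of 10 libraries at 9.35 to 56.6 CPM, with 0 and 0.0598 CPM in the other 2. In group 2 it was on in 5 of 8 libraries at 4.47 to 91.8 CPM, with 0 counts in 3. The controls were at 24.5 and 56.8 CPM. Libraries without it occurred in every mutant group, and its ranges overlapped between the groups. *Sesn* was at a median of 111 CPM in libraries with *CG46429* on and 122 CPM in libraries with it off.

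Across the 27 libraries, *CG46429* went with *CG46244* (Spearman's rho 0.73) and *CG46307* (0.70), 2 more overlapping genes, which lie on another chromosome arm, and it was in the same state as *CG46307* in 18 of 21 libraries. *CG46429* also followed the mean log2 level of 10 eye genes, rhodopsins among them (rho 0.74), and ran against 8 accessory gland genes (rho -0.69). The summed level of the eye genes was 2095 to 4482 CPM in libraries with *CG46429* on (median 2842) and 1423 to 2861 CPM in libraries with it off (median 2249). These ranges overlapped, and the part of tissue makeup in the states was not tested. In whole flies, fewer cells of a type and less RNA per cell cannot be told apart. A rho over libraries is a description, since libraries share their depth and tissue makeup.

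The other 34 genes had no copy family and no overlap, and many of their states went together. *Burs* (3R, 21769518 to 21770279) was at 0.124 to 2.06 CPM in group 4 (median 0.322), 0 to 0.598 CPM in group 3 (median 0.193) and 0 to 1.63 CPM in group 2 (median 0.254), with 0.0769 and 0.190 CPM in the controls. *Pburs* (2L, 14416729 to 14417331) was at 0 to 2.63 CPM in group 4 (median 0.161), 0 to 0.512 CPM in group 3 (median 0.209) and 0.0844 to 1.54 CPM in group 2 (median 0.472), with 0 counts in both controls. Both subunit genes were on in the same 3 libraries of group 4, GC055061, GC055065 and GC055067, and in none of group 3. Where both had a state, it was the same in 8 of 8 libraries, although the genes lie on different chromosomes (rho 0.77).

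*CG17298* had a still wider range. It was on at 21.6, 25.4 and 33.2 CPM in those 3 libraries of group 4 and at 0 to 0.569 CPM in the other 6. In group 3 it was on in GC055060 alone at 6.63 CPM, and in group 2 in 4 of 8 libraries at 1.58 to 14.4 CPM. The controls were at 0.231 and 0.0633 CPM. The genes closest to *Burs* over the 27 libraries were *CG34196* (rho 0.82, same state in 9 of 9 libraries), *CG17298* (0.81, 9 of 9) and *Pburs*.

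A list of 8 genes put together after these values were seen (*Burs*, *Pburs*, *CG34196*, *CG17298*, *CG14572*, *CG4017*, *CG42759* and *CG34205*) shows the extent. In 5 libraries at least 6 of the 8 were on, 3 of 9 libraries in group 4, none of 10 in group 3 and 2 of 8 in group 2. GC055060 of group 3 was next, with 5 on and none off. In 4 libraries at least 6 were off. No library had 1 of the 8 on and another off, but the list was drawn up from these same values, so nothing is read from this. *CG43335* (rho 0.70 with *Burs*) and *nw* (0.68) were left out, although *CG4017* (0.67) was kept. *CG43335* was in the same state as *CG17298* in 10 of 11 libraries, and *nw* as *CG4017* in 8 of 9. For the 8 listed genes, the rho with the mean log2 level of 8 flight muscle genes was 0.42 to 0.67. Their rho with the total count was 0.41 or less.

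In pairs of genes, 56 of the 1891 pairs were in the same state in every library where both had one, with at least 8 such libraries, and 6 of these pairs had equal counts. The 6 with the highest level when on, taken for the lower gene of a pair, were *CG42759* with *CG17298* (11 of 11 libraries), *CG43060* with *CG34206* (14 of 14), *CG34196* with *CG17298* (14 of 14), *CG43060* with *CG34196* (9 of 9), *CG42759* with *CG34196* (11 of 11) and *nw* with *CG34196* (10 of 10). Only 4 pairs were in opposite states throughout, *CG43335* with *CG30059* (12 libraries), *CG31463* with *CG13869* (10), *CR43697* with *CG46307* (9) and *CG46244* with *CG13869* (8). The genes of a pair were seldom neighbours. *CG43335* and *CG31446* lie 57618 bases apart on 3R (10 of 10 libraries in the same state), and *CG14566* and *CG14572* lie 2055 bases apart on 3L (6 of 6).

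*CG43060* (3R, 8041224 to 8055970) was at 0.0311 to 12.8 CPM in group 4 (median 0.508), 0.0759 to 8.37 CPM in group 3 (median 1.24) and 0 to 17.0 CPM in group 2 (median 0.579), and the controls were at 0.115 and 0.0317 CPM. Its level followed the mean log2 level of 6 genes of larval serum and fat body proteins, such as *Lsp2* and *Fbp1*, which are made in the larva and run down in young flies (rho 0.94 over 27 libraries). The summed level of these 6 genes was 724 to 3503 CPM in the 10 libraries with *CG43060* on and 30.01 to 186 CPM in the 6 libraries with it off. In the 11 libraries with *CG43060* between, it was 88.8 to 1108 CPM and overlapped both. *CG34206* (rho 0.86), *CG43335* (0.74) and *nw* (0.65), a gene named for the narrow wings of its mutants, followed the same list. The list itself was at 43.7 to 3503 CPM in group 4, 118 to 2639 CPM in group 3 and 30.01 to 2852 CPM in group 2, against 11.3 and 27.4 CPM in the controls.

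**Figure D3:**
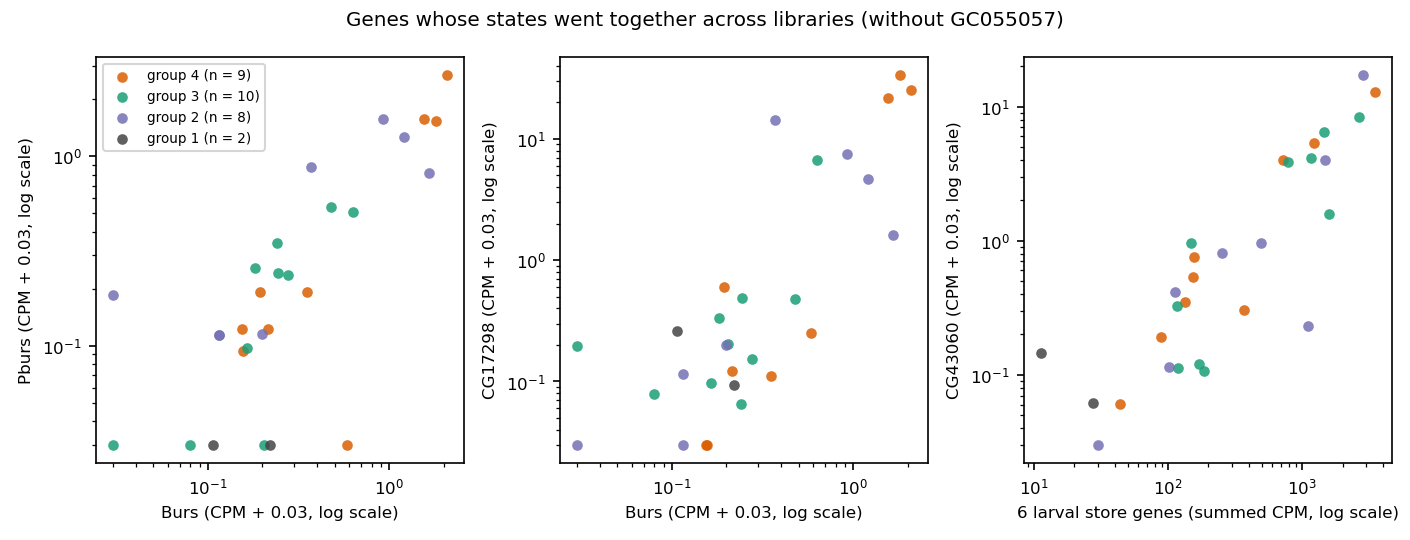
Levels of *Pburs* and of *CG17298* against *Burs*, and of *CG43060* against the summed level of 6 larval store genes, in each library except GC055057, on logarithmic axes with 0.03 CPM added to the levels of single genes and points colored by group. Libraries of group 4 and group 2 are at the upper right of the first 2 panels, and libraries of all 3 mutant groups run along the diagonal of the third.

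*CG7631* and *CG31463* were on in no library of group 4. *CG31463* was at 0 to 0.751 CPM in group 4 (median 0.280), 0 to 5.32 CPM in group 3 (median 0.698) and 0.0424 to 4.28 CPM in group 2 (median 0.549), and both controls were above most mutant libraries at 1.85 and 6.40 CPM. These 2 genes were in the same state in 11 of 11 libraries (rho 0.83). Both followed 10 midgut genes, among them digestive proteases (rho 0.63 for *CG7631* and 0.51 for *CG31463*). The midgut list was at 1084 to 2714 CPM with *CG7631* on and 403 to 1407 CPM with it off. With *CG31463* on the list was at 722 to 2714 CPM, and with it off at 664 to 1770 CPM. The ranges overlapped for both genes, and widely for *CG31463*. The pseudogene *CR45470* went with the accessory gland list (rho 0.76), and it was on in 4 of 9 libraries of group 4, none of group 3 and 1 of group 2, with 0 counts in both controls. The part of tissue makeup in these states was not tested.

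The library numbers of groups 3 and 4 alternate, so that each group 4 library comes right after a group 3 library. The labels do not say what the numbers mean, and no test was built on them. Without GC055057, 9 such pairs remained. Among the 34 genes of neither kind, the group 4 library and the group 3 library just before it were in the same state in 91 of 108 gene and pair combinations where both had a state (84.3%), against 50.7% for the other pairs of a group 4 and a group 3 library. By pair, the agreement was 72.7% to 100% with a median of 80%. In the 8 pairs in which the group 4 number was 1 below that of group 3, the median was 43.2%, and over all 81 pairs that were not consecutive it was 53.8%. The genes of copy families did not have this difference, with 78 of 146 combinations in the same state (53.4%) in consecutive pairs and 52.9% in the others. Overlapping genes lay between, with 32 of 48 (66.7%) against 49.7%.

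**Figure D4:**
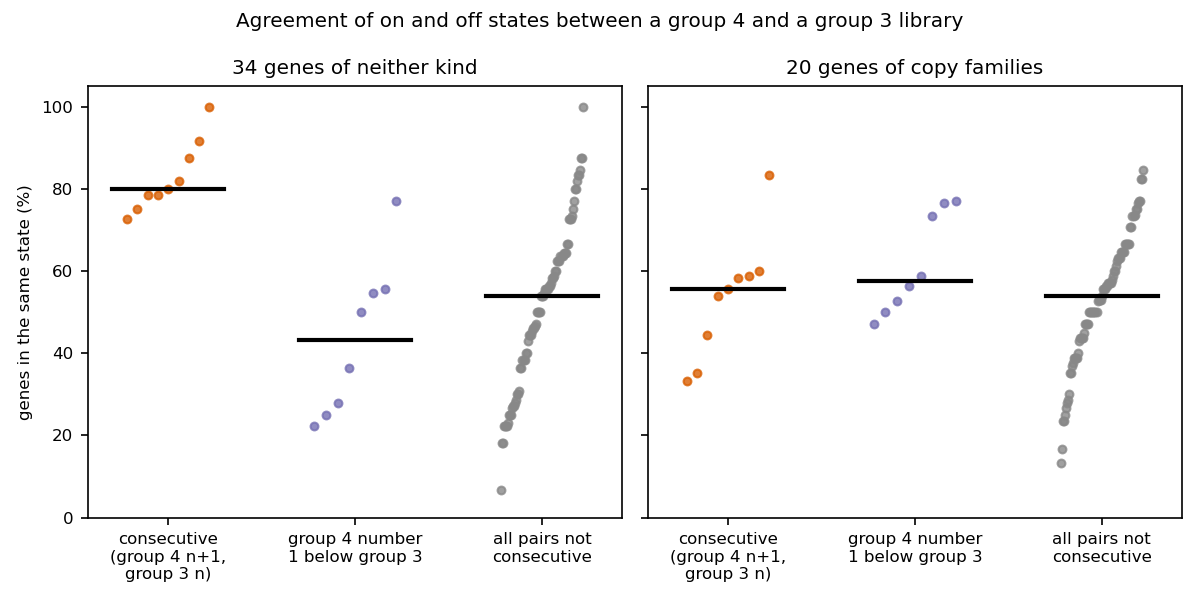
Share of genes in the same state (y axis, percent) between a group 4 and a group 3 library, for the 34 genes of neither kind (left) and the 20 of copy families (right), where each point is a pair of libraries, bars are medians and the third column holds all 81 pairs that are not consecutive, including the 8 of the second. On the left the 9 consecutive pairs lie at or above 72.7%, and on the right they spread like the others.

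Of 29 genes with at least 6 consecutive pairs in which both libraries had a state, 4 had the same state in all of them. *mthl8* (3L, 22428 to 26308), of the Methuselah-like receptor family, was the clearest, with 9 of 9 pairs in the same state, against 39 of 81 other pairs. It was on in group 4 in GC055051, GC055055 and GC055059 at 3.33, 1.52 and 6.45 CPM and had 0 counts in the other 6. In group 3 it was on in GC055050, GC055054, GC055056 and GC055058 at 2.98, 6.33, 10.9 and 6.37 CPM, and the other 6 lay between 0 and 0.0598 CPM. GC055057, which follows GC055056, had it on at 9.85 CPM. In group 2 it was on in 5 of 8 libraries, up to 16.9 CPM, and the controls were at 4.73 and 11.1 CPM. *mthl8* thus had nearly no counts where it was off and several CPM where it was on, in each mutant group.

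*CG34025* was in the same state in 9 of 9 pairs (44 of 72 others), *CG8960* in 8 of 8 (50 of 72 others) and *mei-217* in 6 of 6 (22 of 42 others). Over the 9 pairs the rho of the levels was 0.91 for *CG8960*, 0.86 for *mthl8*, 0.83 for *mei-217* and 0.78 for *CG34025*. *CG8960* was on in 7 of 9 libraries of group 4, 8 of 10 of group 3 and 6 of 8 of group 2, and had 0 counts in 5 mutant libraries. *mthl8* did not go with other genes of the set, the most similar being *CG30160* at a rho of 0.34 (14 of 26 libraries in the same state). For 5 of the 9 group 4 libraries, the group 3 library with the most genes of neither kind in the same state was the one just before it.

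**Figure D5:**
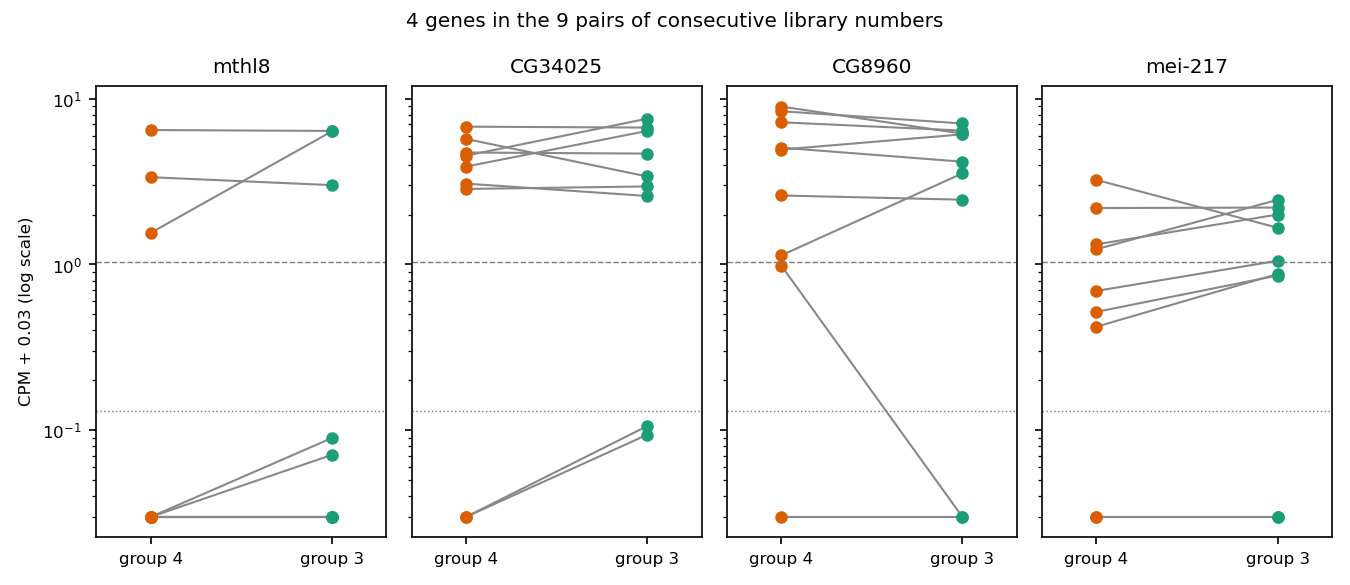
Levels of *mthl8*, *CG34025*, *CG8960* and *mei-217* (CPM plus 0.03, log scale) in group 4 (left) and group 3 (right), with lines joining the 9 pairs of consecutive library numbers and dotted and dashed lines at the limits of off and on. For *mthl8* and *CG34025* no line crosses from on to off, and for *CG8960* 1 line runs from between in group 4 to off in group 3.

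The mutant groups were then compared for the level of each gene with edgeR's quasi-likelihood test over all 30 libraries, GC055057 included, and all 62 genes were among the 13190 tested. Flying mutants of group 4 set against group 3 address what goes with flight. Here 0 of the 62 genes passed at an adjusted p of 0.05 in edgeR, and 0% of all genes did. At an unadjusted p under 0.05 there were 12 (19.4%), against 8% of all genes. Nothing is read from that share, since the 62 genes were chosen by how widely they varied in the libraries compared. The 12 became 4 in edgeR without the 6 libraries labelled human skin and 3 in limma-voom. At the adjusted threshold DESeq2 called 1 of the 62, *CG40813*, which was also the only 1 of all genes that it called. Limma-voom called 0 of the 62 and 0 of all genes. Among the 12 were *Burs* and *Pburs* and other genes of the list of 8 above, which are not independent of one another.

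After *CG40813*, the smallest p-values between groups 4 and 3 were those of *CG42759*, *Drsl3* and *CG31463*. *CG42759* was at 0.0932 to 10.8 CPM in group 4 (median 0.698) and 0 to 1.79 CPM in group 3 (median 0.198), with a log2 fold change of 3.02 (SE 0.97, adjusted p = 0.611 in edgeR), and 1.45 without the 6 libraries labelled human skin. *Drsl3*, of the drosomycin-like family of antifungal peptides, was at 0.0311 to 14.7 CPM in group 4 (median 0.403) and 0.0759 to 0.768 CPM in group 3 (median 0.332), with a log2 fold change of 2.46 (SE 0.85, adjusted p = 0.616 in edgeR). Its highest value belonged to GC055061, and in limma-voom the log2 fold change was 0.61. *CG31463* had a log2 fold change of -2.43 (SE 0.88, adjusted p = 0.616 in edgeR), and -1.24 in limma-voom. All of these ranges overlapped between the groups.

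Group 4 against group 2 compares flying mutants with mutants from pairs without flying offspring. Again 0 of the 62 genes passed in edgeR, with 0% of all genes, and 4 (6.45%, or 2 genes without GC055057) had an unadjusted p under 0.05, against 12.1% of all genes. Limma-voom called 0 of the 62 and 0 of all genes, and DESeq2 called 0 of the 62 and 3 of all genes. The 4 genes with an unadjusted p under 0.05 in edgeR were *CG31463* (log2 fold change -2.30, SE 0.91), *CG31091* (-2.11, SE 0.84), *mei-217* (2.05, SE 0.93) and *CG46244* (-1.76, SE 0.82), with edgeR adjusted p-values of 0.336 to 0.400. DESeq2 gave these 4 no adjusted p and so could not call them. *mei-217* was at 15.9 CPM in GC055057, against a highest level of 3.21 CPM in the rest of group 4 and 1.82 CPM in group 2, and without that library its log2 fold change was 0.77 (1.06 in limma-voom with it). Group 3 against group 2 compares mutants that could not fly from the 2 kinds of parents. Here too 0 of the 62 genes passed in edgeR, with 0% of all genes. DESeq2 and limma-voom called 0 of the 62 and 0 of all genes. In limma-voom 1 of the 62 genes had an unadjusted p under 0.05. In edgeR 3 (4.84%) did, against 1.84% of all genes. Besides *CG40813* these were *CG34196* (log2 fold change -2.52, SE 0.97, and -1.46 in limma-voom) and *CG42759* (-2.05, SE 1.00), both with an edgeR adjusted p of 1.

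The mean of the 3 mutant groups against the controls asks what the loss of Pink1 goes with. Of the 62 genes, 5 (8.06%) passed in edgeR, 2 higher and 3 lower in the mutants, against 30.9% of all genes (16.1% higher, 14.8% lower). The share over all genes depended on GC055057. Without that library 6 of the 62 and 5372 of all genes passed, against 4080 of all genes with it. The share called was smaller in the set than in the table. Nothing is read from this either, since the rule chose low genes that varied widely among the mutants. *CG7298* was at 0.0806 to 1.14 CPM in group 4 (median 0.431), 0 to 1.35 CPM in group 3 (median 0.473) and 0 to 1.09 CPM in group 2 (median 0.317), and at 6.42 and 1.77 CPM in the controls. All 27 mutant libraries lay below both controls, with a log2 fold change of -3.03 (SE 0.67, adjusted p = 0.00133 in edgeR). *Pgcl* was at 0 to 7.17 CPM in the mutants, 26 of 27 below both controls at 5.07 and 10.9 CPM, with a log2 fold change of -2.95 (SE 0.97, adjusted p = 0.0235 in edgeR). *CG7631* was at 0 to 3.32 CPM in the mutants, 21 of 27 below both controls at 1.19 and 6.84 CPM, with a log2 fold change of -2.61 (SE 0.94, adjusted p = 0.0363 in edgeR).

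*CG34025* (3L, 2959722 to 2961049) was at 0 to 6.76 CPM in group 4 (median 3.87), 0.064 to 7.55 CPM in group 3 (median 3.15) and 0.0847 to 7.93 CPM in group 2 (median 4.12), and the controls held 3 counts in all, at 0.115 and 0 CPM. Over pooled counts this is a ratio of 67.0 (95% exact Poisson interval of the 3 counts, 22.9 to 325, for counting error only), and 21 of 27 mutant libraries lay above both controls (adjusted p = 0.0425 in edgeR). *Pburs* had 0 counts in both controls. Over pooled counts the 27 mutant libraries (0.591 CPM) were at least 11.3-fold higher than a control floor of 3 counts (0.0521 CPM). This limit too is for counting error only and leaves out the spread between libraries. For *Pburs* 23 of 27 mutant libraries lay above both controls (log2 fold change 6.17, SE 2.38, adjusted p = 0.0485 in edgeR). In edgeR, each of the 5 calls was lost without 1 or the other control. Far fewer genes of the whole table passed in those fits too, each of which leaves 1 library in group 1. The log2 fold change of *CG7631* was -0.61 without GC055041. That of *Pgcl* was -2.10 without GC055041, and that of *CG7298* was -2.03 without GC055040 and -3.62 without GC055041. DESeq2 did not call *Pgcl* (adjusted p = 0.0692) or *CG7631* (adjusted p = 0.116), and limma-voom did not call *CG34025* (adjusted p = 0.423) or *Pburs* (adjusted p = 0.128). Without the 6 libraries labelled human skin, edgeR did not call *CG7631* (adjusted p = 0.0615) or *Pburs* (adjusted p = 0.067). The midgut list was at 403 to 2714 CPM in the mutants, against 3307 and 6439 CPM in the controls. *CG7298* and *CG7631* followed it among the mutants (rho 0.53 and 0.63), and its part in these differences was not tested.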

How the data were processed

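The authors filtered the reads with fastp, matched them to the fly transcripts of BDGP6.46 with kallisto and summarised them with tximport, according to the study's methods. What the authors deposited is a table of estimated counts, 1 whole number per gene and library. GEO's notes on processing list kallisto 0.45.0 and GRCh38, a human build, whereas the table has fly symbols. The library kit is stranded. The study's methods name length-scaled counts for its limma analysis. Whether the deposited whole numbers are those counts, and the strand setting of kallisto, are not given in the sources used here.

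Both the 62 genes and all lists were chosen with earlier results of these data known. CPM used total counts. States, equal counts, family sums and agreement between libraries were computed in Python 3.11.15 (pandas 2.3.3). All 30 libraries entered 1 edgeR 4.0.16 model with TMM scaling, filterByExpr and 1 mean per group. The robust quasi-likelihood test was used with Benjamini-Hochberg adjustment over 13190 genes and a threshold of 0.05, and the steps were tested on simulated data. The comparisons were repeated with limma-voom (limma 3.58.1), DESeq2 1.42.0, Fisher's exact test of on against not on, other scaling and filters, and fits without single libraries. Named genes were those with the highest level when on, the smallest p in each comparison, equal counts, or states equal to or opposite to those of another gene. *CG40813*, *Unc-115b* and *p24-2* were named from earlier results, and *mthl8*, *CG43060*, the genes around *Burs* and those with counts in steps after their values were seen. Gene positions are those of the BDGP6.54 annotation, a later release than that of the authors on the same release 6 assembly. The families were set by symbol and position, since sequences were not analysed here.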

Additional observations from a re-analysis of the deposited data

Results flagged for a closer look

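A value was marked when it lay far from the other libraries of its group by Dixon's criterion. For normally distributed values, chance alone meets it in about 1 in 20 groups. It was applied to the numbers of genes on and off and to each family sum, in each mutant group. Some marks can thus arise by chance. In group 3, GC055060 had 37 of the 62 genes on, against 25 in the next library. In group 4, GC055057 had a sum of 297 CPM over the *Sdic* genes, against 451 CPM in the next lowest library. The same library had 126 CPM over the *His1* genes, against 4.25 CPM in the next highest, and 330 CPM over the *His2A* genes, against 25.2 CPM. In group 2, GC055044 had a sum of 336 CPM over the *Sdic* genes, against 471 CPM in the next lowest library. Also in group 2, GC055049 had 30.7 CPM over the *His2A* genes, against 21.3 CPM in the next highest.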

How the results depend on the processing

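The size of the set depended on its limits. It held 102 genes with off set below 0.2 CPM, 145 with on set above 0.5 CPM, 34 with on above 2 CPM, 163 with 3 libraries required in each state and 21 with 8. The other changes gave 43 to 78 genes, among them 77 with GC055057 kept in and 78 with every library thinned to the smallest total, of which 56 were in the set of 62. Between groups 4 and 3, DESeq2 called 1 of the 62 genes (1 of all genes). The other alternatives called 0 of the 62 in each comparison among mutant groups. Against the controls, DESeq2 called 8 of the 62 genes (4642 of all genes) and limma-voom 11 (4436 of all genes). Each of these 2 methods shared 3 genes with the 5 that edgeR called (4080 of all genes). Without the 6 libraries labelled human skin, edgeR called 3 of the 62 (3288 of all genes). Changes when a single control was left out are given above. The 17 pairs of a gene and a comparison refitted one by one (the 4 smallest p-values of each comparison and every gene called) kept their direction under these alternatives. Fisher's test of on against not on uses the states that chose the genes, and nothing is read from it. No paired analysis was run, because no label links a library of group 4 to one of group 3. The tests between these groups treat their libraries as independent, although both came from the same parent pairs. What this does to their p-values was not tested. In shallow libraries a single count can lift a gene out of the off state, and 2 controls limit every comparison with them.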
